A study of Mus musculus with 12 samples.

Results

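A set of 7 Schwann cell and peripheral nerve transcripts, Mbp, Sox10, S100b, Pmp22, Prx, Ngfr and Cnp, was followed by gene symbol through prostate RNA-seq of mice descended from females given chlordecone, also called kepone, an organochlorine insecticide. All 7 had a row in both tables, among 19091 genes in the F1 table and 26023 in the F3 table. The 4 groups were F1 chlordecone (3 libraries), F1 control (2 libraries), F3 chlordecone (3 libraries) and F3 control (3 libraries). In the chlordecone groups the F0 females received 100 µg/kg/day during pregnancy, from E6.5 to E15.5; F1 males are their sons, and F3 males came from breeding that line onward. The control groups are labelled only as control. The labels give no strain, age, vehicle or litter, and do not say whether a sample was 1 animal or a pool, so p-values measure only the spread between these samples.

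Schwann cells wrap or myelinate the axons of peripheral nerves, and in the prostate they accompany the autonomic fibres that enter from the pelvic ganglia and run through the stroma. Sox10 is the transcription factor that specifies the lineage and, together with Egr2, switches on the myelin genes. Myelinating cells make large amounts of the structural proteins of the sheath, whereas the non-myelinating cells that bundle thin axons keep the neurotrophin receptor encoded by Ngfr. Several of these genes are not exclusive to glia: Pmp22 is also transcribed by fibroblasts and epithelia, S100b by adipocytes, and the Mbp locus makes golli transcripts outside myelin.

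In the GRCm38 annotation Sox10 lies at chr15:79154908-79165240 on the minus strand, S100b at chr10:76253853-76261159 on the plus strand, Pmp22 at chr11:63128982-63159547 on the plus strand and Ngfr at chr11:95568818-95587735 on the minus strand. Prx is at chr7:27499324-27520214 and Cnp at chr11:100574904-100591729, both on the plus strand. Exons of Prx overlap those of the antisense gene Gm15541, and exons of Cnp overlap those of Dnajc7 on the other strand. S100b and Mbp overlap Dip2a and Rpl21-ps8 on the other strand outside exons. Whether counting used strand is not given in the sources used here. If it did not, reads in the exon stretches that Prx and Cnp share with these partners are ambiguous, and their levels are uncertain to that extent.

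RefSeq promoter windows (GRCm38.p6, 250 bases before to 50 after the start) were matched for 5 of the 7 markers, and those of Prx and Cnp are shown because they were the ones that held a core searched for the 2 regulators named above. The cores were GCGTGGG for EGR factors, and ACAAAG and ACAATG for SOX factors, read on both strands, with no overlap between matches. Matches are in capitals. The Prx window, chr7:27499074-27499373 on the plus strand, holds the EGR core on its minus strand. The Cnp window, chr11:100574689-100574988 on the plus strand, holds ACAAAG and the EGR core on its plus strand.
Prx: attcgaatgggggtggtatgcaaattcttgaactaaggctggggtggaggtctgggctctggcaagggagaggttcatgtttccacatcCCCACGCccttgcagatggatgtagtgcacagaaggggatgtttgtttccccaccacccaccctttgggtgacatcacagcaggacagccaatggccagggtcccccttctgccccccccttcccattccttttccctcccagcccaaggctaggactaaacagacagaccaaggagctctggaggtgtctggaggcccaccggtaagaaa
Cnp: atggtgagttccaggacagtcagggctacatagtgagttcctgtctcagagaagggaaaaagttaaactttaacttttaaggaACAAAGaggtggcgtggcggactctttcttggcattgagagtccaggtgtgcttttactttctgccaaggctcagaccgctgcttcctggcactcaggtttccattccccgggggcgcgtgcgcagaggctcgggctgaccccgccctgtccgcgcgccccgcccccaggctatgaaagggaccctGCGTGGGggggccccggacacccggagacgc
Of all 32851 windows of this length, 5.04% held GCGTGGG, 18.7% held ACAAAG and 12.6% held ACAATG. The matches describe letters, not bound sites.

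Total counts ran from 17858215 to 28061760 in F1 chlordecone libraries and from 17228539 to 18740109 in F1 control libraries, and from 86552953 to 112491139 in F3 chlordecone libraries and from 71672418 to 114762135 in F3 control libraries. The F1 tissue carried seminal vesicle transcripts at a summed 187000 to 529000 CPM (read counts scaled to library size, with TMM factors) in chlordecone libraries and 119000 to 121000 CPM in control libraries, whereas the same list summed to 10 to 16.5 CPM in F3 chlordecone and 10.6 to 71.1 CPM in F3 control libraries. Vas deferens and epididymis transcripts summed to 104 to 44300 CPM in F1 chlordecone libraries and to 25.2 to 25.4 CPM in F1 control libraries. The part of this difference in dissected tissue in the marker results was not tested. In bulk tissue, fewer cells of a type and less RNA per cell cannot be told apart.

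In F1 prostates no marker passed the threshold of an adjusted p under 0.05 (0 of 7 by edgeR and 0 of 7 by DESeq2), where the background over all genes was 0.0281% by edgeR and 3.70% by DESeq2. By unadjusted p under 0.05 in edgeR, 1 of 7 was called, Pmp22, against 11.5% of genes. That p was 0.193 in edgeR with total counts in place of TMM factors, and it was above 0.05 without F1 chlordecone 3 or without either F1 control library, at 0.106 to 0.152. In all, 6 markers had a log2 fold change above 0 and 1, Sox10, had it below 0, and the median was 0.69, beside 0.02 over all genes, of which 51.4% were above 0. With total counts the median of all genes shifted to -0.24 and that of the markers to 0.40, again with 6 of 7 above 0. Pmp22 and Ngfr were the 2 markers for which every chlordecone library was above every control library, and 16.2% of all genes were arranged in that way. The 2 F1 control libraries were very alike. The chi-square per gene between them was 16.6, against 327 to 599 between F1 chlordecone libraries. The labels do not say whether these controls are separate animals, so the F1 control SDs may understate the spread between animals.

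Pmp22 encodes a tetraspan protein of compact peripheral myelin. In F1 it had 32.0, 36.4 and 44.0 CPM in chlordecone libraries and 23.7 and 22.8 CPM in control libraries. The chlordecone libraries all lay above the control libraries, with a mean of 37.5 ± 6.06 CPM in chlordecone (SD, n = 3) and 23.3 ± 0.646 CPM in control libraries (SD, n = 2). The log2 fold change was 0.69 (SE 0.26, 95% interval 0.09 to 1.28), with adjusted p = 0.371 in edgeR and 0.270 in DESeq2.

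Ngfr encodes the low-affinity neurotrophin receptor p75. It had 1.70, 6.05 and 5.85 CPM in F1 chlordecone libraries and 1.26 and 1.55 CPM in F1 control libraries. Chlordecone 1 was close to the control libraries, and the other two were several times higher. The log2 fold change of 1.69 (SE 0.74, 95% interval -0.03 to 3.40) had an adjusted p of 0.440 in edgeR and 0.280 in DESeq2.

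Mbp and Cnp encode myelin basic protein, which binds the inner faces of the sheath membrane together, and the phosphodiesterase of uncompacted myelin. In F1 Mbp had 13.5, 6.54 and 13.9 CPM in chlordecone libraries and 9.38 and 8.29 CPM in control libraries. Cnp had 9.82, 3.65 and 12.0 CPM in F1 chlordecone libraries and 5.87 and 4.22 CPM in F1 control libraries. For both genes chlordecone 2 was the lowest of the 5 libraries and chlordecone 1 and 3 were the highest, so the groups overlapped. The log2 fold changes were 0.36 (SE 0.41) for Mbp and 0.75 (SE 0.56) for Cnp, with adjusted p of 0.796 and 0.666 in edgeR.

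Prx encodes periaxin, which links the outer Schwann cell membrane to the surrounding matrix. Its order across the libraries differed, with chlordecone 2 highest and chlordecone 3 lowest, at 2.1, 3.65 and 1.01 CPM in F1 chlordecone libraries and 1.73 and 1.59 CPM in F1 control libraries. The groups overlapped. The log2 fold change of 0.44 (SE 0.81, adjusted p = 0.887 in edgeR) became -0.10 without F1 chlordecone 2.

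Sox10 had 0.594, 1.31 and 0.322 CPM in F1 chlordecone libraries, from 15, 24 and 7 reads, and 0.996 and 1.73 CPM in F1 control libraries, from 19 and 37 reads. The groups overlapped, and the log2 fold change of -0.88 (SE 1.11, 95% interval -3.44 to 1.67) had an adjusted p of 0.815 in edgeR. S100b, a calcium-binding protein of glia, had 1.54, 1.53 and 3.73 CPM in F1 chlordecone libraries and 0 and 1.55 CPM in F1 control libraries. The control library with no read had a floor of 0.157 CPM, set by 3 counts, against 33 reads in the other control library. The log2 fold change of 1.54 (SE 1.45, adjusted p = 0.744 in edgeR) was 0.56 without F1 control 1 and 8.59 without F1 control 2. In that last fit the remaining control library held no read, so its value is no bound on the change.

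**Figure D1:**
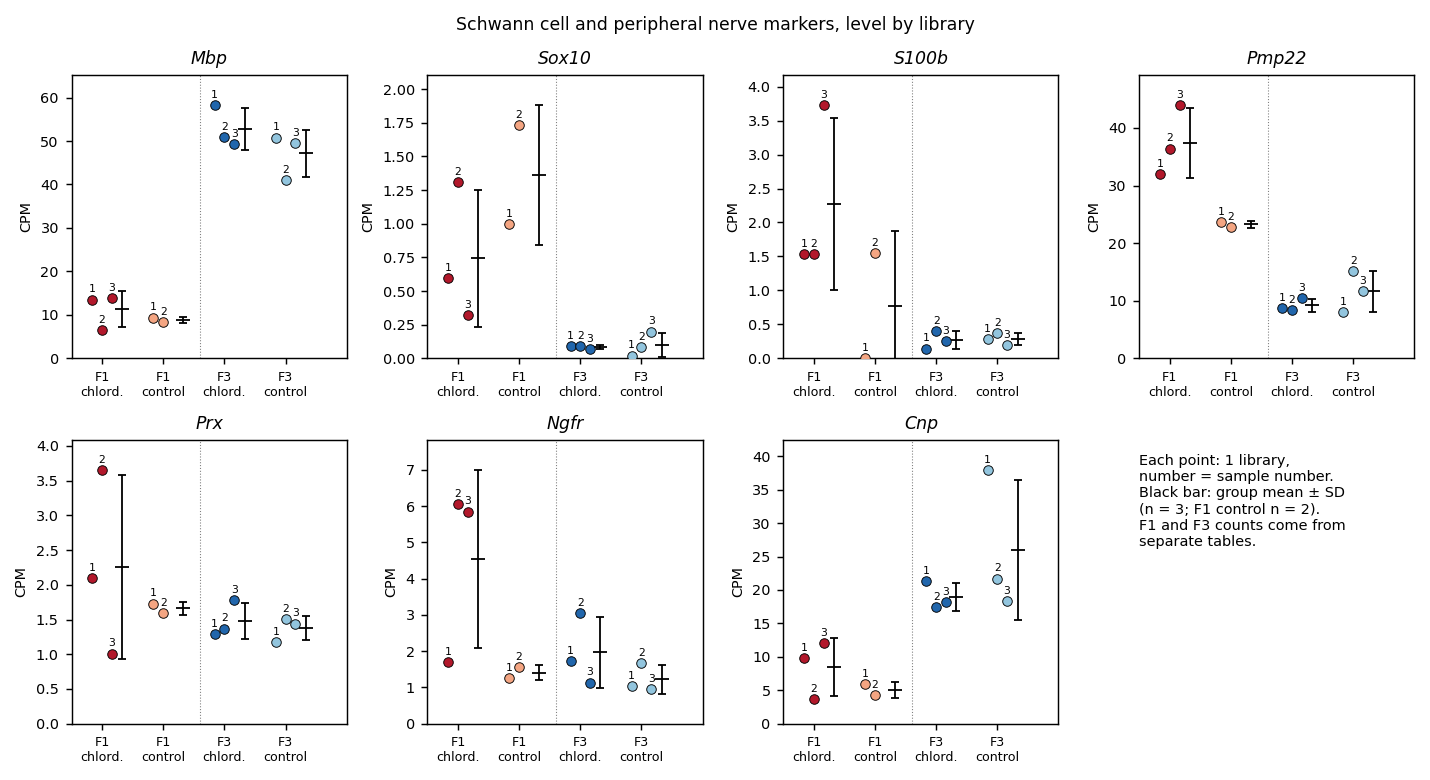
Level of the 7 markers in each library (CPM on the vertical axis; points are libraries numbered by sample, bars are group mean ± SD, n = 3 and n = 2 for F1 control). Pmp22 in F1 sits between 32.0 and 44.0 CPM in chlordecone libraries, above 23.7 and 22.8 CPM in control libraries, and Mbp and Cnp are higher in the F3 table than in the F1 table.

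In F3 prostates, 2 generations on, 6 of the 7 markers entered the test, and none was called (0 of 6 by edgeR, and 0 of 7 by DESeq2, which also tested Sox10; background 0.0596% and 1.24%). At unadjusted p under 0.05 the count was also 0 of 6, against 10.6% of genes. Of the log2 fold changes, 3 were above 0 and 3 below, where 48.8% of all genes were above 0, and the median was 0.01 beside -0.01 over all genes. The groups of all 6 overlapped, whereas 16.6% of genes had groups apart, 8.34% with chlordecone higher and 8.25% with chlordecone lower. Sox10 failed the low-count filter, with 10, 8 and 7 reads in F3 chlordecone libraries and 2, 6 and 24 reads in F3 control libraries; tested with no filter its adjusted p was 0.898 in edgeR.

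Mbp was the most abundant marker in F3 by CPM, at 58.3, 50.9 and 49.3 CPM in chlordecone libraries and 50.8, 41.0 and 49.6 CPM in control libraries. The groups overlapped and their means of 52.9 ± 4.80 CPM in chlordecone and 47.2 ± 5.34 CPM in control libraries (SD, n = 3 each) differed by a log2 fold change of 0.16 (95% interval -0.14 to 0.47, adjusted p = 0.645 in edgeR). This interval was the narrowest of the 6 tested in F3. Cnp had 21.3, 17.4 and 18.2 CPM in F3 chlordecone libraries and 37.9, 21.7 and 18.3 CPM in F3 control libraries. One control library stood above the other five, and the log2 fold change of -0.45 (SE 0.26) had an adjusted p of 0.541 in edgeR; without F3 control 1 it was -0.07.

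Pmp22 had 8.75, 8.33 and 10.5 CPM in F3 chlordecone libraries and 8.04, 15.1 and 11.7 CPM in F3 control libraries, with overlapping groups and a log2 fold change of -0.33 (SE 0.23, adjusted p = 0.602 in edgeR). Ngfr had 1.72, 3.04 and 1.13 CPM in F3 chlordecone libraries and 1.03, 1.67 and 0.963 CPM in F3 control libraries. Chlordecone 2 was the highest library and the groups overlapped. The log2 fold change was 0.69 (SE 0.40, adjusted p = 0.549 in edgeR). Prx stayed within 1.18 to 1.78 CPM over all 6 F3 libraries, and S100b within 0.144 to 0.407 CPM. Their log2 fold changes of 0.11 (SE 0.25) and -0.08 (SE 0.48) had adjusted p of 0.888 and 0.957 in edgeR and changed sign when single libraries were left out: Prx was -0.05 without F3 chlordecone 3, and S100b was 0.23 without F3 chlordecone 1 and 0.13 without F3 control 2.

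The difference between the generations in the chlordecone log2 fold change, F1 minus F3, was called for none of 7 markers (0 by edgeR and 0 by DESeq2; background 0.718% and 6.90%). At an unadjusted p under 0.05 in edgeR the count was 1 of 7, Pmp22, against 16.9% of genes. It was 0.95 for Pmp22 (SE 0.34, 95% interval 0.22 to 1.68, adjusted p = 0.174 in edgeR), with an F1 value of 0.69 and an F3 value of -0.33. For Cnp it was 1.15 (SE 0.57, 95% interval -0.08 to 2.37, adjusted p = 0.331 in edgeR). Without F1 chlordecone 2, the library with the lowest Cnp, it was 1.44, with adjusted p = 0.0404 in edgeR. Over all genes the same step raised the calls of this difference from 122 to 2320. The sizes for the others ran from -0.65 for Sox10 to 1.55 for S100b, with adjusted p from 0.610 to 0.893 in edgeR. Leaving out single libraries moved the difference of Sox10 between -1.59 (without F3 control 3) and -0.19 (without F3 control 1 or F1 control 2). It moved that of S100b between 0.53 (without F1 control 1) and 10.17 (without F1 control 2, adjusted p = 0.108 in edgeR), the last again against a single control library with no read.

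**Figure D2:**
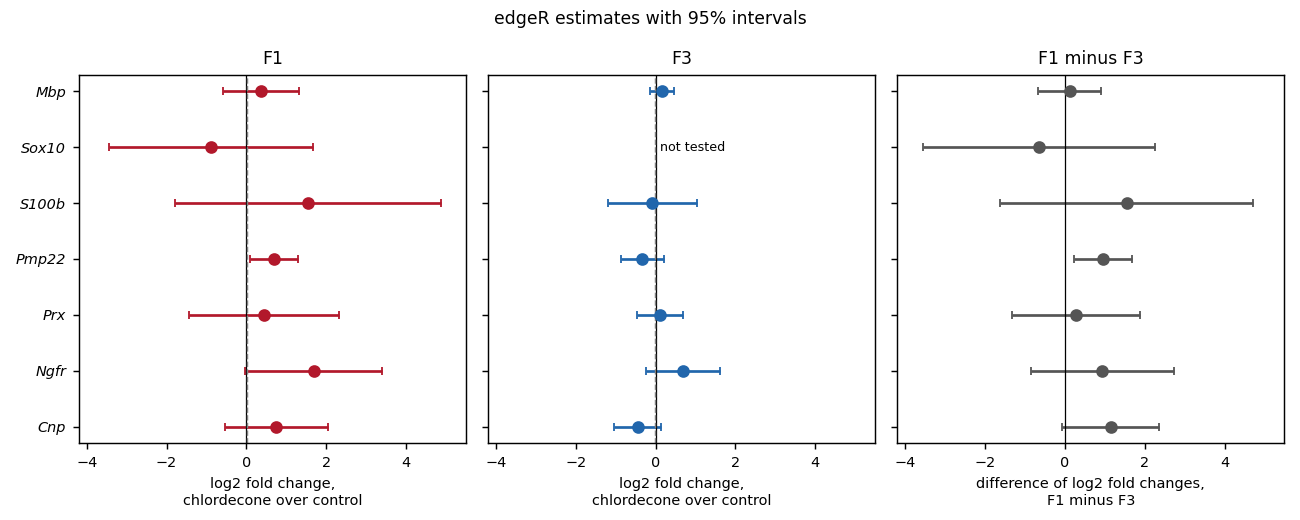
edgeR log2 fold changes of chlordecone over control in F1 and F3, and their difference F1 minus F3, on the horizontal axes, for the 7 markers (points are estimates, bars 95% intervals; the dashed line in F1 and F3 is the median of all genes). The interval for Pmp22 is above 0 in F1, at 0.09 to 1.28, and crosses 0 in F3.

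Per kilobase of exon (RPKM), the order of the markers was led by Pmp22 in F1 and by Mbp and Cnp in F3. In F1 chlordecone libraries Pmp22 averaged 15.9 ± 2.58 RPKM, apart from Cnp at 2.33 ± 1.19, S100b at 1.53 ± 0.853, Mbp at 1.34 ± 0.490 and Ngfr at 1.32 ± 0.712 RPKM, and neighbours among these other four were within their SDs (n = 3). Prx and Sox10 were lowest, at 0.404 ± 0.238 and 0.243 ± 0.167 RPKM. In F1 control libraries Pmp22 averaged 9.89 ± 0.274, Cnp 1.39 ± 0.321, Mbp 1.04 ± 0.0905 and S100b 0.521 ± 0.737 RPKM (n = 2). Sox10, Ngfr and Prx followed there at 0.447 ± 0.171, 0.407 ± 0.0593 and 0.298 ± 0.0172 RPKM. Of these, Sox10 and Ngfr were within their SDs, and Ngfr lay above Prx by more than the SDs.

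In F3 chlordecone libraries Mbp averaged 6.24 ± 0.567, Cnp 5.21 ± 0.572 and Pmp22 3.90 ± 0.479 RPKM, and in F3 control libraries the same 3 led, with Cnp at 7.13 ± 2.88, Mbp at 5.57 ± 0.630 and Pmp22 at 4.92 ± 1.49 RPKM (n = 3 each). Mbp and Cnp were within their SDs of each other in both groups, and Pmp22 was below Cnp beyond the SDs in the chlordecone libraries but not in the control libraries. Ngfr was next in both, at 0.570 ± 0.284 RPKM in chlordecone and 0.354 ± 0.113 RPKM in control libraries. Prx, S100b and Sox10 closed the order in both groups, with Sox10 at 0.0272 ± 0.00482 RPKM in chlordecone and 0.0333 ± 0.0296 RPKM in control libraries. By CPM over the F3 libraries, 80.9% of tested genes had a lower mean than Mbp and 0.418% had a lower mean than Sox10. That share was 65.1% for Cnp, 51.3% for Pmp22 and 28.2% for Prx, so Mbp, Cnp, Pmp22 and Prx were spread over the F3 range. Sox10 failed the low-count filter that set the tested genes, so its low place beside them follows from the filter. The 2 tables were normalised separately, so levels set across generations are descriptions.

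The levels of Mbp and of Prx per Sox10 transcript were followed as log2 ratios (CPM, prior count of 2). Counts per gene do not tell golli transcripts of the Mbp locus from those of myelin. Mbp to Sox10 was 4.31, 2.24 and 5.07 in F1 chlordecone libraries and 3.12 and 2.20 in F1 control libraries. The groups overlapped, with a difference of 1.21 between means (exact permutation test, two-sided, p = 0.3). Prx to Sox10 was 1.67, 1.42 and 1.41 in F1 chlordecone libraries and 0.74 and -0.12 in F1 control libraries. The groups were apart, the difference was 1.19, and the exact permutation p of 0.1 is the smallest this design can give, so no ratio could pass 0.05 in either generation. In F1 the Sox10 side of each ratio rests on 7 to 37 reads, and the Prx side on 22 to 67 reads.

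In F3, Mbp to Sox10 was 9.05, 8.81 and 9.16 in chlordecone libraries and 10.26, 8.61 and 7.82 in control libraries. The chlordecone libraries lay inside the range of the control libraries (difference 0.11, exact permutation p = 0.9). Prx to Sox10 was 3.58, 3.62 and 4.38 in F3 chlordecone libraries and 4.86, 3.87 and 2.73 in F3 control libraries, again inside it (difference 0.04, exact permutation p = 1). The Sox10 side of each F3 ratio rests on 2 to 24 reads.

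**Figure D3:**
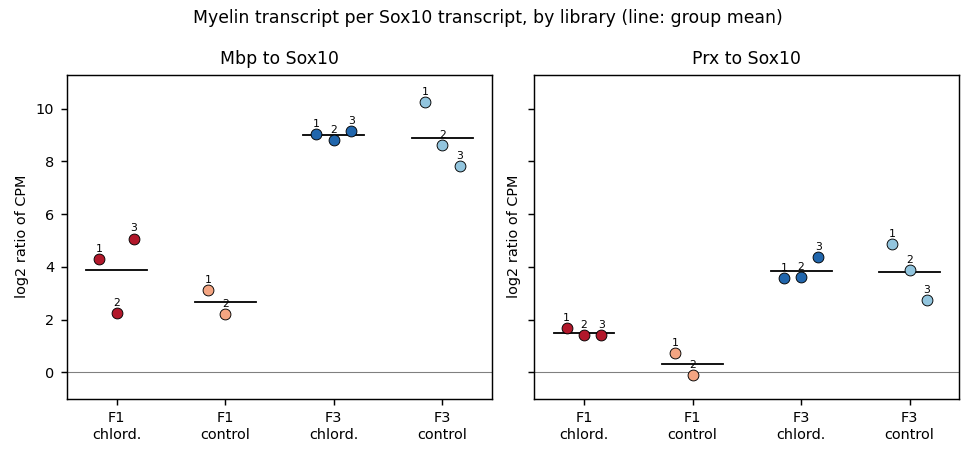
Log2 ratio of Mbp and of Prx to Sox10 in each library (vertical axis; points are libraries, lines are group means). F1 chlordecone libraries are above F1 control libraries for Prx to Sox10, at 1.41 to 1.67 and -0.12 to 0.74, and the F3 groups overlap in both panels.

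The 7 markers did not move as a block between libraries. Centred on the mean of each generation, Mbp and Cnp had a Pearson r of 0.78 over the 11 libraries but 0.04 over the 6 F3 libraries, and the F1 values above show chlordecone 2 low for both. Sox10 ran against Cnp (r = -0.87 over 11 libraries, -0.81 over the 6 in F3) and Mbp against Prx (r = -0.66 over 11). S100b and Ngfr had r = 0.57 over 11 libraries. These are descriptions: the libraries share a table and a scale factor, and Sox10 had 37 reads at most.

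**Figure D4:**
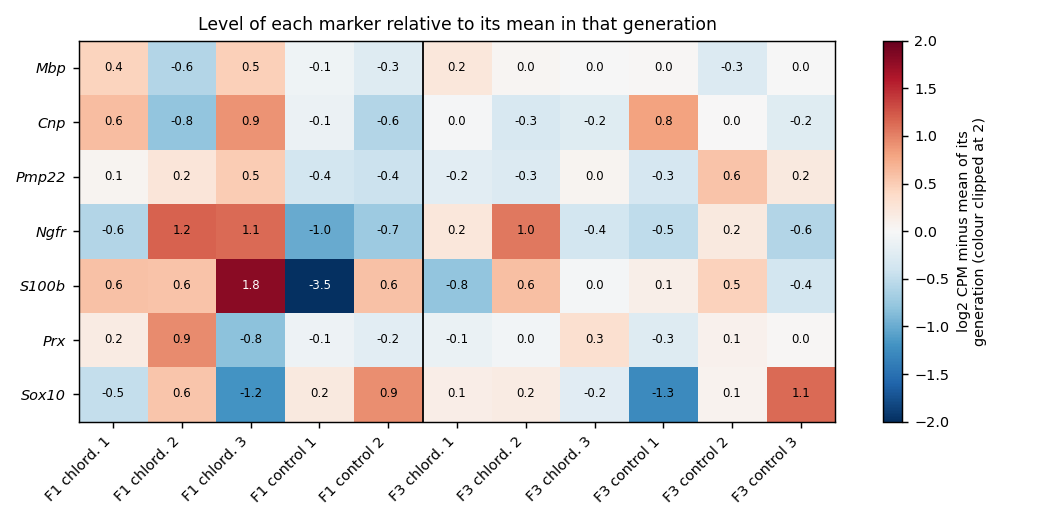
Log2 CPM of each marker minus its mean within its generation, one column per library and one row per marker (colour and printed value; colour clipped at 2). In F1 chlordecone 2, Mbp and Cnp are below their mean while Prx, Ngfr and Sox10 are above it.

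The genes whose centred pattern over the 11 libraries was most like the mean of the 7 standardised markers were Kank1 (r = 0.97), Fam212b, Ring1 and C7 (r = 0.96 each), and Slpi and Cldn10 (r = 0.95 each), among 11153 candidates. The median r of the candidates was 0.12, and 23.3% had r above 0.5. Kank1, an actin regulator, had 48.9, 39.5 and 47.2 CPM in F1 chlordecone libraries and 21.1 and 25.9 CPM in F1 control libraries; it had 22.2, 26.1 and 23.1 CPM in F3 chlordecone libraries and 20.7, 26.7 and 25.5 CPM in F3 control libraries. C7, a complement component, had 2.61, 2.29 and 2.62 CPM in F1 chlordecone libraries and 0.0524 and 0.375 CPM in F1 control libraries. The marker mean to which these genes were matched was itself above both control libraries in every F1 chlordecone library, so the same order in the matched genes follows from how they were chosen.

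The wider Schwann cell lists, of myelin proteins, adhesion and junction proteins, myelin lipid enzymes, lineage factors, ligands, neurotrophins and non-myelinating cell markers, held 57 genes beside the 7. In F1, 54 of them were tested and none was called by edgeR, 7 had an unadjusted p under 0.05, all of them higher, against 11.5% of all genes, and DESeq2 called 2 of 56, among them Gap43 (adjusted p = 0.0101), against 3.70%. Both counts are close to those shares. In 1 fit of all libraries edgeR called 2 of 55, against 930 of 16980 over all genes. Without F1 chlordecone 2 it called 9 of 51, against 2604 of 17394 over all genes. The median log2 fold change was 0.35 beside 0.02 over all genes, with 38 of 54 above 0; with total counts it was 0.08 beside -0.24, with 29 of 54 above 0. Of the 54, 14 had groups apart (9 higher, 5 lower), against 31.3% of all genes. In F3, 45 were tested, none was called by edgeR or DESeq2, 3 had an unadjusted p under 0.05, all of them lower, against 10.6% of all genes, and 5 had groups apart (2 higher, 3 lower), against 16.6%. Neither count is above its background.

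Gap43, a growth-cone protein of regenerating and non-myelinating nerve, had 3.33, 7.09 and 5.94 CPM in F1 chlordecone libraries and 0.891 and 1.08 CPM in F1 control libraries (log2 fold change 2.46, SE 0.64, adjusted p = 0.230 in edgeR). Of the non-myelinating list, 8 of 9 tested genes had a log2 fold change above 0 in F1, against 51.4% of all genes. Their median was 0.98 beside 0.02 over all genes, and 0.70 beside -0.24 with total counts. In F3, 5 of 8 were above 0, against 48.8% of all genes, with a median of 0.10 beside -0.01.

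Mal, a membrane raft protein of myelin and of many epithelia, had groups apart in F3, at 96.1, 88.9 and 101 CPM in chlordecone and 124, 127 and 121 CPM in control libraries (log2 fold change -0.38, adjusted p = 0.385 in edgeR). Erbb3, the neuregulin receptor, which many epithelia also make, had 30.7, 20.6 and 32.6 CPM in F1 chlordecone libraries and 31.6 and 30.3 CPM in F1 control libraries. Cdh19, a cadherin of the glial lineage, and Gfra3, a GDNF family co-receptor, were detected in both generations. In F1 Cdh19 averaged 1.87 CPM in chlordecone and 0.897 CPM in control libraries (log2 fold change 1.06, adjusted p = 0.757 in edgeR). Gfra3 averaged 1 CPM in F1 chlordecone and 0.0703 CPM in F1 control libraries (log2 fold change 3.70, SE 1.95, adjusted p = 0.511 in edgeR). Its groups were apart, but the control mean was below the 3-count floors of 0.157 and 0.141 CPM. In F3 Cdh19 had at most 0.156 CPM and Gfra3 at most 0.377 CPM in any library. Cdh19 and Gfra3 were thus present but low in F3, beside the higher Mbp and Cnp.

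The levels of other cell type lists are given beside those of the markers. In F1 the 18 tested neuronal genes, of pelvic ganglion cells and axons, had a median log2 fold change of 1.91. Of these, 16 were above 0 and 11 had every chlordecone library higher, against 51.4% and 16.2% of all genes. None was called by edgeR and DESeq2 called 7, against 0.0281% and 3.7% of all genes. In 1 fit of all libraries edgeR called 4, against 930 of 16980 over all genes. With total counts in place of TMM factors it called 1, against 42 of 17804 over all genes. The summed level of the neuronal genes was 91.4, 227 and 296 CPM in F1 chlordecone libraries and 42.1 and 35.4 CPM in F1 control libraries. Without F1 chlordecone 2 edgeR called 7 of 17 neuronal genes, against 2604 of 17394 over all genes. Without F1 chlordecone 1 it called 1 of 18, against 7 of 17535 over all genes. Vip, a neuropeptide of parasympathetic fibres, had 8.31, 34.0 and 41.2 CPM in F1 chlordecone libraries and 0.943 and 0.844 CPM in F1 control libraries (log2 fold change 4.95, SE 0.76, adjusted p = 0.111 in edgeR). In F3 the neuronal sum was 5.59, 17.1 and 18.7 CPM in chlordecone libraries and 16.5, 8.22 and 11.5 CPM in control libraries, which overlapped. Ret, with a mean of 7.38 CPM, was the most abundant gene in that sum, and 6 of the list's genes entered the test, of which 2 were above 0, with a median of -0.17. With no filter, 15 of 19 were above 0, with a median of 2.02, and DESeq2 called 1, Tubb3 (adjusted p = 0.0490), named here after its values were seen. Tubb3 had 8, 77 and 10 reads in F3 chlordecone libraries and 4, 2 and 0 reads in F3 control libraries.

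Adipocyte genes summed to 145, 480 and 102 CPM in F1 chlordecone libraries and to 38.0 and 43.5 CPM in F1 control libraries, and smooth muscle genes to 11900, 4720 and 7510 CPM in F1 chlordecone libraries and to 4100 and 4010 CPM in F1 control libraries. Their median log2 fold changes in F1 were 2.60 over 9 tested genes and 1.06 over 8, beside the 0.69 of the markers. In F3 the medians were -0.72 over 10 tested genes and -0.48 over 8, with the sums overlapping. The adipocyte direction rested on 1 library: 1 of 10 genes was above 0, but without F3 control 2 the count was 10 of 10 and the median 0.90. In F1, leaving out chlordecone 2 let edgeR call 4 of 9 adipocyte and 8 of 8 smooth muscle genes, against none of either with all libraries. Over all genes the same step raised the calls from 5 of 17804 to 2604 of 17394. Oligodendrocytes also make Mbp and Cnp, and their defining genes summed to 0.00898 to 0.123 CPM in F3 chlordecone and to 0 to 0.0707 CPM in F3 control libraries, and to 1.38 to 3.6 CPM in F1 chlordecone and 2.91 to 4.03 CPM in F1 control libraries. Melanocytes also make Sox10, and their genes summed to 4.16 to 9.43 CPM in F1 chlordecone and 5.01 to 8.59 CPM in F1 control libraries, and to 2.61 to 3.32 CPM in F3 chlordecone and 2.05 to 2.77 CPM in F3 control libraries. Median F1 log2 fold changes of the remaining lists ran both ways, beside 0.02 over all genes. They were 5.03 for vas deferens and epididymis, 3.39 for urothelium, 0.89 for basal epithelium and 0.84 for skeletal muscle. Leukocytes had 0.75, fibroblasts 0.56 and seminal vesicle 0.36. Endothelium had -0.46, oligodendrocytes -0.29, prostate luminal epithelium -0.22 and melanocytes -0.03. The part of these other cell types in the marker levels was not tested.

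**Figure D5:**
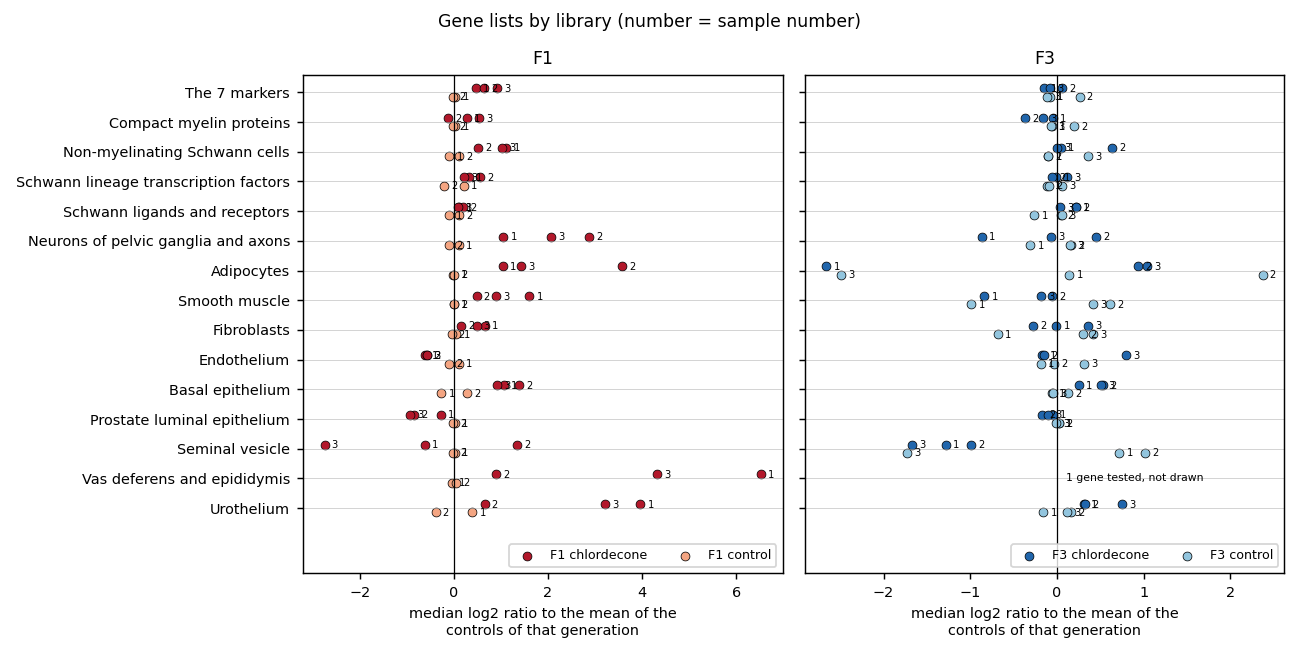
Median log2 ratio of each gene list to the control mean of its generation, by library (horizontal axis; points are libraries numbered by sample; in F3 the marker row holds the 6 tested markers). The neuron, adipocyte and basal epithelium rows of F1 chlordecone libraries sit at about 1 or above. The urothelium row runs from 0.65 to 3.96 there, and the vas deferens and epididymis row from 0.89 to 6.52. The marker row of F3 is close to 0 in both groups.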

How the data were processed

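Poly-A RNA of mouse prostate was sequenced from stranded libraries. Of 12 labelled samples, 11 had a column of counts. F1 control 3 had no column in the F1 table and was not analysed here, so F1 had 2 controls where the labels list 3. The authors deposited raw read counts per gene in 1 table per generation. Per the submitters' processing notes, the tools named include TopHat2 2.0.14 and HTSeq 0.6.1, and the build is mm10. Columns headed C were taken as control and those headed K as chlordecone (kepone). The authors' own fold change columns were not used. Starts of the 7 markers in the F1 table did not match GRCm38, so coordinates are those of GENCODE M21, matched by identifier.

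The fits used R 4.3.3 and edgeR 4.0.16: filterByExpr (minimum count 10, minimum total 15), TMM scaling, the quasi-likelihood F test (two-sided) in each generation, a generation-by-treatment contrast over genes of both tables, and Benjamini-Hochberg adjustment over all genes with a threshold of 0.05. CPM uses TMM library sizes and RPKM the union of exons. Alternatives were DESeq2 1.42.0, other scalings, filters and prior counts, 1 fit of all libraries, a replicate block, and leaving out each library. The steps were tested on simulated data with a fixed spread between libraries and changes in genes above 1 CPM. That test does not cover markers with few reads or the uneven spread of the F1 libraries. The floor of 3 counts covers counting error only.

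The members and gene lists were chosen with earlier results of these data known. Genes named are the 7 markers, up to 4 per related list and 3 per other list with the highest mean CPM, and the 6 most similar genes; Cdh19 and Gfra3 are named as fixed defining markers. Some genes of the related lists are counted but not reported here by name.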

Additional observations from a re-analysis of the deposited data

How the results depend on the processing

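No marker was called within F1 or within F3 under any alternative, including those that leave out 1 library (0 to 0), and of 278 marker values recomputed 268 kept their direction and side of the threshold; a minimum mean of 1 CPM removed some markers. Leaving out 1 library gave -0.10 to 0.79 for Prx in F1, -0.05 to 0.20 for Prx in F3, -0.50 to 0.23 for S100b in F3, and, for the F1 minus F3 difference, -0.32 to 0.62 for Prx and -0.06 to 0.34 for Mbp, with 0 to 1 markers called. That Mbp difference, 0.12, was also -0.11 with total counts in place of TMM and -0.13 with the replicate block. The ratio differences ran from 0.62 to 2.03 (Mbp to Sox10, F1), 0.76 to 1.61 (Prx to Sox10, F1), -0.43 to 0.79 (Mbp to Sox10, F3) and -0.50 to 0.56 (Prx to Sox10, F3), the last being -0.05 with a prior count of 0.5. The cause was not tested. Over all genes, the F1 count of 5 was 42 with total counts, 21 with no filter, 692 in DESeq2, 322 with the replicate block, 930 in 1 fit of all libraries and 0 to 2604 without 1 library (2604 without F1 chlordecone 2, and 0 without F1 chlordecone 3 or either F1 control). The F3 count of 10 was 38 with no filter, 228 in DESeq2, 2 in 1 fit and 7 to 41 without 1 library (41 and 17 without F3 control 1 and 2). The count of 122 for the difference between generations was 188 with a mean of at least 1 CPM, 1150 in DESeq2, 49 with the block and 27 to 2320 without 1 library (2320 without F1 chlordecone 2). Samples with the same number did not deviate together (r of 0.05 and 0.06 in F1, and of 0.13, 0 and 0 in F3). Each r rests on a single pair of libraries, so it cannot decide whether the numbers pair samples. The labels do not say. With the replicate block in F1, edgeR called 5 of 18 neuronal, 4 of 9 adipocyte and 2 of 8 smooth muscle genes. It called 1 of 54 genes of the related lists. Over all genes that fit called 322 of 17804. The unadjusted p of Pmp22 in F1 was 0.195 in the same edgeR fit, and the block changed no call of a marker. Sox10 and S100b had 0 to 81 reads a library, which limits the precision of their fold changes.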
